A study of Homo sapiens with 9 samples.

Results

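The genes described here encode histone-modifying enzymes, the writers and erasers of chromatin marks, in the small cell lung cancer line COR-L279 after 24 h of JQ1. Members were taken by symbol from the deposited table of normalized counts: the KDM, KMT, KAT, HDAC, SIRT, SETD and PRMT families, EZH1, EZH2, EHMT1, EHMT2 and the NSD genes, with EP300, CREBBP, EED, SUZ12, DOT1L, SUV39H1, SUV39H2, SETDB1 and SETDB2, and no symbol with a hyphen. The rule found 80 rows of 79 symbols among the 17518 genes of the table. KMT2B has 2 rows, and all 80 rows passed the filter on low counts that left 17514 genes tested. The table uses older symbols for some members, so that SETD8 is the gene now called KMT5A and PRMT10 is now PRMT9, and genes listed only under an older symbol outside the rule (WHSC1 for NSD2, WHSC1L1 for NSD3, SUV420H1 and SUV420H2) are counted with the related genes at the end.

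Histone acetyltransferases and methyltransferases transfer acetyl groups from acetyl-CoA and methyl groups from S-adenosylmethionine to lysine or arginine side chains of histone tails. Deacetylases and sirtuins remove acetyl groups, and the KDM enzymes remove methyl groups from lysines. Acetylated lysines are read by bromodomains, and JQ1 is a competitive inhibitor of the bromodomains of the BET proteins, which couple acetylated chromatin to transcription. The 80 rows fall into 45 writers and 35 erasers, with EED and SUZ12, the non-catalytic subunits of Polycomb repressive complex 2 (PRC2), counted as writers. Several members have main substrates that are not histones, among them SETD3, SETD6, HDAC6 and the mitochondrial sirtuins SIRT3, SIRT4 and SIRT5, and such members were also left out in a separate count.

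The libraries fall into 3 groups of 3, described by the labels as biological replicates: wild-type COR-L279 cells kept for 24 h in DMSO, in 0.5 µM JQ1 or in 1.5 µM JQ1. COR-L279 is a cell line of the SCLC-N subtype, defined by the transcription factor NEUROD1, so the groups are cultures of 1 line and not tumours of several donors. Total RNA was made into stranded libraries and sequenced. Both doses are compared with the same 3 DMSO libraries, so the 2 comparisons with DMSO are not independent of each other.

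The libraries held 60721187 to 88482001 reads in genes, recovered from the normalized counts. Neuroendocrine markers were abundant in every library, with NEUROD1 at 264 to 271 FPKM (fragments per kilobase of transcript, scaled to sequencing depth) in DMSO, 348 to 363 FPKM at 0.5 µM and 357 to 365 FPKM at 1.5 µM, while POU2F3 was at or below 0.10, PTPRC at or below 0.02 and CD3E at or below 0.01 FPKM. The summed level of the 5 neuroendocrine markers was 1320 to 1341 FPKM in DMSO, 1294 to 1301 FPKM at 0.5 µM and 1269 to 1296 FPKM at 1.5 µM. Replicate 3 at 0.5 µM and replicates 1 and 2 at 1.5 µM stood apart by a few low-level genes. SLC2A3 was at 2.02 to 2.08 FPKM in them against at most 0.04 FPKM elsewhere, and COL3A1 at 2.74 to 3.05 FPKM against at most 0.50 FPKM. H19 had 1476 to 2071 normalized counts in these libraries, against 1.04 to 8.22 counts in the remaining 3 libraries from JQ1 and 63.8 to 82.8 counts in the DMSO libraries. The FPKM table gives H19 at 6.80 FPKM in DMSO replicate 3, which the normalized counts do not set apart from the other DMSO libraries. The summed level of the 7 mesenchymal markers was 17 to 19.6 FPKM in these 3 libraries, 10.0 to 10.4 FPKM in the other JQ1 libraries and 26.5 to 27.2 FPKM in DMSO, the last carried by COL1A2 and VIM. The part of these libraries in the results was not tested beyond leaving them out. In bulk RNA, fewer cells that express a gene and less of its RNA per cell cannot be told apart.

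Most members changed, in both directions and by modest amounts. A gene is called higher or lower here when limma's test on log2(normalized count + 1) gave an adjusted p under 0.05 over all tested genes. At 0.5 µM, 40 of the 80 members were higher than in DMSO and 21 lower, where 35.3% of all tested genes were higher and 34.7% lower. At 1.5 µM, 42 were higher and 27 lower, against 36.9% and 36.2% of all tested genes. The median log2 fold change of the members was 0.11 at 0.5 µM and 0.15 at 1.5 µM, beside −0.01 and −0.003 over all tested genes. The JQ1 and DMSO libraries did not overlap for 64 members at 0.5 µM and for 72 at 1.5 µM, where 72.6% and 81.7% of all tested genes did not overlap. The share of members called higher, 50% at 0.5 µM and 52.5% at 1.5 µM, was above the background. The share called lower was below it at 0.5 µM, at 26.3%, and near it at 1.5 µM, at 33.8%. No test of the set was made.

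Large changes were few. At 0.5 µM, 2 members (KAT2B and SIRT4) rose and 3 (PRMT8, HDAC9 and HDAC7) fell by at least 1 on the log2 scale, where 14.9% of all tested genes were called with a change of that size. At 1.5 µM, 3 members (KAT2B, SIRT4 and SIRT1) rose and 4 (HDAC9, PRMT8, HDAC7 and KAT2A) fell by that much, where the background was 18.8%. Of the 80 members, 39 were higher at both doses, 21 lower at both and 10 called at neither. Another 9 were called at 1.5 µM alone, HDAC2 was called at 0.5 µM alone, and no member was called in opposite directions at the 2 doses. Without the 3 JQ1 libraries that carry SLC2A3 and COL3A1, 37 members were higher and 21 lower at 0.5 µM, and 38 higher and 21 lower at 1.5 µM. The lone 1.5 µM library is assumed there to vary like the other groups.

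**Figure D1:**
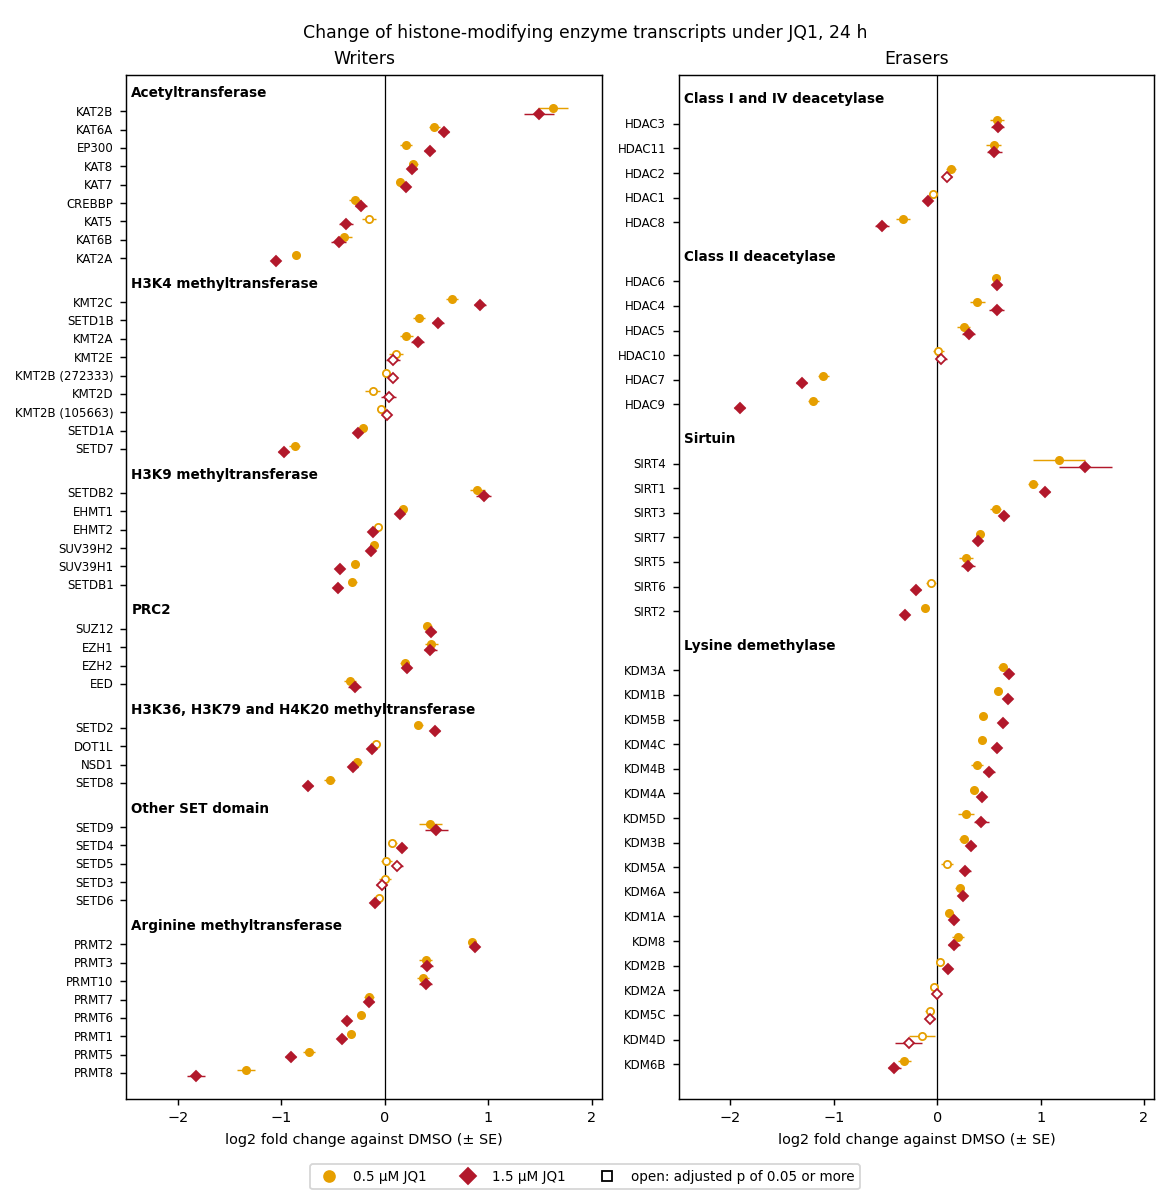
Log2 fold change against DMSO of the 80 histone-modifying enzymes (x axis, with bars of 1 standard error), grouped by enzyme class, with writers in the left panel and erasers in the right. Orange circles are 0.5 µM JQ1, red diamonds 1.5 µM JQ1, and open symbols did not pass an adjusted p of 0.05. Most symbols lie between −1 and 1, with HDAC9, PRMT8, HDAC7 and KAT2A below and KAT2B, SIRT4 and SIRT1 above at 1.5 µM.

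Writers and erasers differed in the split of their calls. Of the 45 writers, 18 were higher and 16 lower at 0.5 µM, and 19 higher and 20 lower at 1.5 µM, with median log2 fold changes of 0.0014 and 0.04. Of the 35 erasers, 22 were higher and 5 lower at 0.5 µM, and 23 higher and 7 lower at 1.5 µM, with median log2 fold changes of 0.26 and 0.30. Among the members with catalytic activity on histones, 14 writers were higher and 13 lower at 0.5 µM and 14 higher and 16 lower at 1.5 µM, out of 33. The 30 erasers of that kind, with the weakly active HDAC4, HDAC5, HDAC7 and HDAC9 kept among them, were split 18 higher and 5 lower at 0.5 µM. At 1.5 µM they were split 19 higher and 7 lower. Beside the 35.3% higher and 34.7% lower of all tested genes at 0.5 µM, these shares were 40% higher and 35.6% lower for writers and 62.9% higher and 14.3% lower for erasers. At 1.5 µM, against 36.9% higher and 36.2% lower of all tested genes, they were 42.2% and 44.4% for writers and 65.7% and 20% for erasers. The writers were thus near the background for higher calls at both doses. For lower calls they were near it at 0.5 µM and above it at 1.5 µM. The erasers as a whole were above it for higher calls and below it for lower calls. At 1.5 µM their classes differed. The lysine demethylases were 76.5% higher and 5.88% lower. The deacetylases and sirtuins were 55.6% higher and 33.3% lower, so their lower calls were near the background of 36.2%. The 17 lysine demethylases gave 11 higher and 1 lower at 0.5 µM and 13 higher and 1 lower at 1.5 µM, the 18 deacetylases and sirtuins 11 higher and 4 lower, then 10 higher and 6 lower. The 36 methyltransferases gave 13 higher and 13 lower at 0.5 µM and 14 higher and 16 lower at 1.5 µM. The methyltransferases, at 36.1% of each kind at 0.5 µM, were near the background. The same background applies to the counts of each class given next, most of which hold few genes. The difference between writers and erasers was not tested. With upper-quartile scaling, 20 erasers were higher and 9 lower at 0.5 µM, and FPKM values gave the same counts.

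Levels compared per transcript length, as FPKM, were lower in sum for the writers and higher for the erasers in every JQ1 library than in every DMSO library. The summed FPKM of the 45 writers averaged 1256 ± 10.0 in DMSO, 1167 ± 45.9 at 0.5 µM and 1123 ± 3.74 at 1.5 µM (SD, n = 3 each). The summed FPKM of the 35 erasers averaged 1020 ± 6.47 in DMSO, 1088 ± 21.1 at 0.5 µM and 1081 ± 2.25 at 1.5 µM (SD, n = 3 each). The ratio of writer to eraser FPKM lay between 1.22 and 1.24 in the DMSO libraries, between 1.04 and 1.09 at 0.5 µM and at 1.04 in all 3 libraries at 1.5 µM. Sums of this kind follow the few most abundant members. Without PRMT1 and PRMT5, the ratio was 0.852 to 0.873 in DMSO, 0.798 to 0.827 at 0.5 µM and 0.798 to 0.809 at 1.5 µM, a smaller difference that still left the JQ1 libraries below every DMSO library. Levels within the set spanned a wide range: in DMSO the mean level was 100 FPKM or more for 5 members (PRMT1 at 262, HDAC2 at 239, KDM1A at 185, SETD6 at 143 and PRMT5 at 113 FPKM) and under 1 FPKM for 3 (KDM4D at 0.983, SIRT4 at 0.263 and KAT2B at 0.237 FPKM), with a median over the members of 17.1 FPKM.

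**Figure D2:**
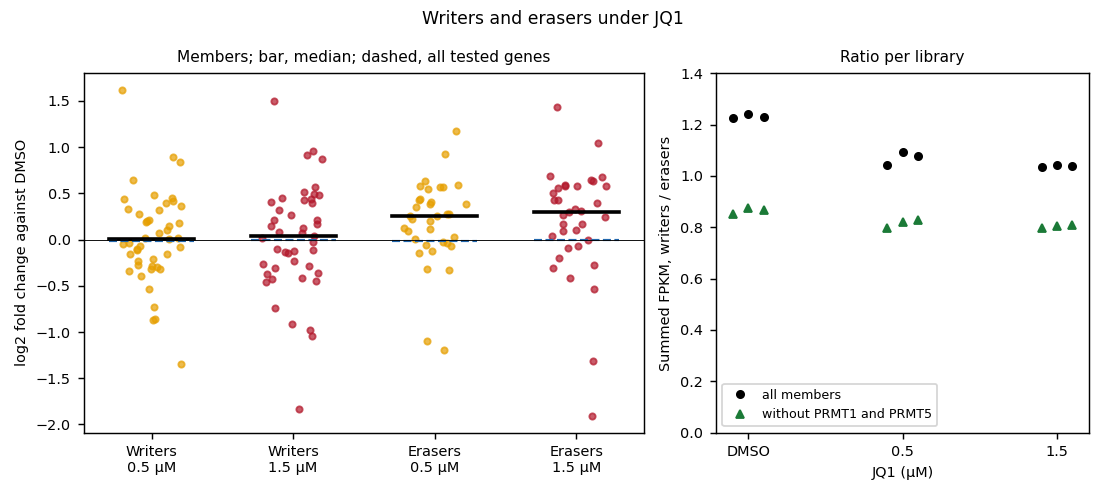
Left, log2 fold change against DMSO of each writer and eraser at both doses, with the median of each side drawn as a line; right, the ratio of summed writer to summed eraser FPKM in each of the 9 libraries, for all members and without PRMT1 and PRMT5. The writers' medians lie near 0 and the erasers' at 0.26 and 0.30, and the ratio over all members is 1.04 to 1.09 in the JQ1 libraries against 1.22 to 1.24 in DMSO.

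The 9 histone acetyltransferases split between higher and lower, and the paralogues KAT2A and KAT2B moved apart. KAT2A (GCN5) and KAT2B (PCAF) are alternative catalytic subunits of the SAGA and ATAC coactivator complexes and acetylate H3K9. At 0.5 µM 5 of the 9 were higher and 3 lower, and at 1.5 µM 5 were higher and 4 lower. The sequences around the starts of KAT2A and KAT2B are shown because these paralogues had the largest changes of each sign within the class. Each is 300 bases on the gene's own strand, from 250 bases before the RefSeq start to 50 from the start on (GRCh38.p14), in lower case with the matches of 4 motifs in capitals. The E-box is CACGTG, which reads the same on both strands. The GC box is GGGCGG and was also searched as CCGCCC, its reverse complement. The CCAAT box was also searched as ATTGG, and the TATA box, which is TATAAA, also as TTTATA. None of these motifs contains another. The KAT2A window lies at chr17:42121318-42121617 on the minus strand and KAT2B at chr3:20040196-20040495 on the plus strand.
KAT2A: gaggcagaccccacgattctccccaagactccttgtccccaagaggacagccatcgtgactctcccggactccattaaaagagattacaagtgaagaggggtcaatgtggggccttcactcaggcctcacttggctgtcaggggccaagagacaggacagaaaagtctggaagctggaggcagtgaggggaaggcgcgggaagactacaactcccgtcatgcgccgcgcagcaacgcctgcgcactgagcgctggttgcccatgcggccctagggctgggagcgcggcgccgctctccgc
KAT2B: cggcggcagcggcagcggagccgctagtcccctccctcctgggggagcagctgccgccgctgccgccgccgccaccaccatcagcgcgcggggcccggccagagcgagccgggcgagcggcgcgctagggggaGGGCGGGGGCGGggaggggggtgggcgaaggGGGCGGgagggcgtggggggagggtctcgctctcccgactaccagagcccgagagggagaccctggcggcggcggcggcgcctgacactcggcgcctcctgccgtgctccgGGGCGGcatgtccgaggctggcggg
The KAT2A window holds none of the 4 motifs, has 62.0% G or C bases and holds 18 CpG dinucleotides. The KAT2B window holds GC boxes starting at −117, −111, −86 and 26 from the start (the start being base 1), with 80.3% G or C bases and 40 CpG dinucleotides. Of all 35116 RefSeq start windows of this length, 45% hold a GC box, 7.26% an E-box, 34.6% a CCAAT and 11.5% a TATAAA. Among the 105 listed starts of the 71 member symbols that matched, these shares were 68.6%, 12.4%, 31.4% and 0.952%, with a median of 67.0% G or C bases and 29 CpG dinucleotides, against 58.7% and 14 over all windows. A match is a description of letters and not a binding site.

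KAT2A was the most abundant acetyltransferase by FPKM in DMSO and the one that fell furthest. It had 7349.9, 7369 and 7246 normalized counts in DMSO, 3873, 4189.5 and 4084 at 0.5 µM and 3539.8, 3541 and 3546 at 1.5 µM. Every JQ1 library lay below every DMSO library, and the 1.5 µM libraries below the 0.5 µM libraries. Log2 fold changes against DMSO are given here and below ± their standard error, and where a gene has a pair of them, the first is at 0.5 µM and the second at 1.5 µM. That of KAT2A was −0.86 ± 0.034 at 0.5 µM and −1.05 ± 0.034 at 1.5 µM (adjusted p = 1.3e-09 by limma at 1.5 µM), which left 48.4% of the DMSO level. KAT2B had 68.9, 50.5 and 66.8 normalized counts in DMSO, 173, 218 and 186 at 0.5 µM and 187, 171 and 168 at 1.5 µM. All JQ1 libraries were above all DMSO libraries, with a log2 fold change of 1.62 ± 0.15 at 0.5 µM and 1.49 ± 0.15 at 1.5 µM (adjusted p from limma of 2.9e-06 and 4.3e-06). Its rise started from a low level, and KAT2A stayed well above it: the FPKM ratio of KAT2A to KAT2B was 151 to 178 in DMSO, 22.1 to 34.1 at 0.5 µM and 19.7 to 26.9 at 1.5 µM.

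EP300 and CREBBP, the p300 and CBP coactivators that acetylate H3K27 at enhancers, also moved apart. EP300 had 6876, 7455 and 8148 normalized counts in DMSO, 8249, 8816 and 8824 at 0.5 µM and 10084, 10190.4 and 10002 at 1.5 µM, with no overlap between the 3 groups and a log2 fold change of 0.21 ± 0.055 and 0.43 ± 0.055 (adjusted p = 3.5e-05 by limma at 1.5 µM). CREBBP had 8828, 9364 and 10298 normalized counts in DMSO, 7819, 7319 and 8205 at 0.5 µM and 7825, 8295 and 8195 at 1.5 µM, below DMSO at both doses, at −0.29 ± 0.058 and −0.23 ± 0.058 on the log2 scale, with the 2 doses overlapping. The FPKM ratio of EP300 to CREBBP was 0.621 to 0.665 in DMSO, 0.856 to 0.984 at 0.5 µM and 0.912 to 1.06 at 1.5 µM. The MOZ and MORF pair, KAT6A and KAT6B, catalytic subunits of H3K23 acetyltransferase complexes, split in the same manner. KAT6A rose by 0.48 ± 0.052 at 0.5 µM and 0.57 ± 0.052 at 1.5 µM on the log2 scale, and KAT6B fell, at −0.39 ± 0.069 and −0.45 ± 0.069. Of the MYST acetyltransferases that act on H4, KAT8 (MOF, for H4K16) rose by 0.28 ± 0.045 and 0.26 ± 0.045, and KAT7 (HBO1) by 0.15 ± 0.035 and 0.21 ± 0.035. KAT5 (TIP60, of the NuA4 complex) had 2581, 2507 and 2643 normalized counts in DMSO, 2143, 2640.0 and 2203 at 0.5 µM and 1963, 2022 and 1975 at 1.5 µM. Its 0.5 µM replicate 2 lay among the DMSO libraries, and it was called lower at 1.5 µM alone (−0.15 ± 0.069, adjusted p = 0.07, and −0.38 ± 0.069, adjusted p = 0.00054, by limma). Without that library, KAT5 was called lower at 0.5 µM too (−0.25, adjusted p = 5.3e-05 by limma). Without the 3 JQ1 libraries that carry SLC2A3, the calls of EP300 at 0.5 µM (adjusted p = 0.0642) and CREBBP at 1.5 µM (adjusted p = 0.0844) were lost. The call of KAT7 at 0.5 µM was lost with FPKM values (0.09, adjusted p = 0.0729 by limma), and with length-adjusted values KAT7 was called at neither dose (adjusted p = 0.314 and 0.433).

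Among the 9 rows of H3K4 methyltransferases, KMT2C and SETD7 had the largest changes, in opposite directions. KMT2C (MLL3) is an enhancer H3K4 monomethyltransferase, and SETD7 is an H3K4 monomethyltransferase that mainly methylates other proteins. At each dose 3 members were higher and 2 lower. KMT2C had 7155, 7953 and 8538 normalized counts in DMSO, 11900.0, 12334 and 12769 at 0.5 µM and 14722, 15235 and 14598 at 1.5 µM. The 3 groups did not overlap, and the log2 fold change was 0.65 ± 0.057 at 0.5 µM and 0.92 ± 0.057 at 1.5 µM (adjusted p = 1.3e-07 by limma at 1.5 µM). SETD7 had 5115, 5680.2 and 5721 normalized counts in DMSO, 2926, 2953 and 3137 at 0.5 µM and 2692, 2789 and 2897 at 1.5 µM, below DMSO in every JQ1 library, with log2 fold changes of −0.87 ± 0.051 and −0.98 ± 0.051 (adjusted p = 3.4e-08 by limma at 1.5 µM). The paralogous catalytic subunits of the SET1 complexes, the main writers of H3K4me3 at promoters, split: SETD1B rose by 0.33 ± 0.056 at 0.5 µM and 0.52 ± 0.056 at 1.5 µM, and SETD1A fell, at −0.21 ± 0.031 and −0.26 ± 0.031. KMT2A (MLL1) had 10104, 11432 and 12371 normalized counts in DMSO, 12474, 13406 and 13143 at 0.5 µM and 13982, 14302 and 13815 at 1.5 µM. It was called higher at both doses (0.21 ± 0.062 and 0.32 ± 0.062), with DMSO libraries that differed among themselves by more than the nearest DMSO and JQ1 libraries did. KMT2D (MLL4), which shares the enhancer role of KMT2C, was not called at either dose (−0.12 ± 0.073 and 0.04 ± 0.073), and neither was KMT2E, which lacks known catalytic activity and was the most abundant of the class by FPKM (0.11 ± 0.069 and 0.08 ± 0.069). The 2 rows of KMT2B, ENSG00000105663.10 and ENSG00000272333.1, may share reads, so their values are uncertain; neither was called at either dose, with log2 fold changes of −0.04 ± 0.037 and 0.02 ± 0.037 for the first and 0.01 ± 0.036 and 0.08 ± 0.036 for the second. Calls in this class moved with single libraries. Without DMSO replicate 1, KMT2D was called lower at 0.5 µM (−0.20, adjusted p = 0.0196 by limma), and the second row of KMT2B was called higher at 1.5 µM without DMSO replicate 3 (0.10, adjusted p = 0.0333) or 0.5 µM replicate 2 (0.08, adjusted p = 0.0349). KMT2A was not called at 0.5 µM (adjusted p = 0.0844) or 1.5 µM (adjusted p = 0.0549) without the 3 JQ1 libraries that carry SLC2A3. With FPKM values KMT2A was not called at 0.5 µM (0.11, adjusted p = 0.157 by limma), and the first row of KMT2B was called lower at both doses (adjusted p = 0.0249 and 0.0136). KMT2D was called lower at 0.5 µM with FPKM values (adjusted p = 0.0409), upper-quartile scaling (adjusted p = 0.0497) and library weights (adjusted p = 0.00617). With length-adjusted values KMT2D (adjusted p = 0.00192 and 0.00322) and the second row of KMT2B (adjusted p = 0.0239 and 0.0259) were called lower at both doses.

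The H3K9 methyltransferases, which write the mark of heterochromatin, fell in 3 of 6 cases at 0.5 µM and 4 of 6 at 1.5 µM, with 2 higher at each dose. SETDB2 had 396, 393 and 341 normalized counts in DMSO, 676, 738 and 688 at 0.5 µM and 712, 735 and 742 at 1.5 µM. Its JQ1 libraries lay well above the DMSO libraries, by 0.90 ± 0.070 at 0.5 µM and 0.95 ± 0.070 at 1.5 µM on the log2 scale (adjusted p = 4.9e-07 by limma at 1.5 µM). SETDB1, the enzyme of H3K9 trimethylation that silences retroelements with TRIM28, had 3619, 3667 and 3644 normalized counts in DMSO, 2838, 3115 and 2839 at 0.5 µM and 2619, 2745 and 2607 at 1.5 µM, lower in every JQ1 library, at −0.32 ± 0.043 and −0.46 ± 0.043. In DMSO, SETDB1 was the more abundant of the pair, at 19.7 FPKM against 1.53 FPKM for SETDB2. SUV39H1 and SUV39H2, the writers of H3K9me3 at pericentric repeats, both fell: SUV39H1 at −0.29 ± 0.039 and −0.43 ± 0.039, and SUV39H2 at −0.10 ± 0.040 and −0.14 ± 0.040. The call of SUV39H2 at 0.5 µM was lost without any 1 of the 9 libraries other than 0.5 µM replicate 2, with an adjusted p from limma of 0.0534 to 0.143, and its call at 1.5 µM without the 3 JQ1 libraries that carry SLC2A3 (adjusted p = 0.229). The euchromatic pair EHMT1 (GLP) and EHMT2 (G9a), which work as a heterodimer, had small changes. EHMT1, the most abundant of the class by FPKM, rose by 0.18 ± 0.031 at 0.5 µM and 0.15 ± 0.031 at 1.5 µM, while EHMT2 was called lower at 1.5 µM alone (−0.07 ± 0.031 and −0.12 ± 0.031). The call of EHMT1 at 1.5 µM was lost with FPKM values (0.04, adjusted p = 0.427 by limma) and with length-adjusted values (0.0019, adjusted p = 0.957). EHMT2 was called lower at 0.5 µM too with upper-quartile scaling (adjusted p = 0.00894 by limma), and SUV39H2 was not called at 0.5 µM with FPKM values (adjusted p = 0.222).

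Of the 4 PRC2 members, 3 rose at both doses and EED fell at both. PRC2 writes the repressive mark H3K27me3. EZH2, its main catalytic subunit in dividing cells and the most abundant of the 4 by FPKM, had 6667, 6709 and 6615 normalized counts in DMSO, 7361, 8130.2 and 7377 at 0.5 µM and 7763, 7535 and 7875 at 1.5 µM. All JQ1 libraries were above DMSO, by 0.19 ± 0.041 and 0.21 ± 0.041 on the log2 scale (adjusted p = 0.00072 by limma at 1.5 µM). EZH1, the alternative catalytic subunit, rose by 0.45 ± 0.059 and 0.44 ± 0.059, and SUZ12, the scaffold subunit, by 0.41 ± 0.042 and 0.45 ± 0.042. EED, which binds H3K27me3 and stimulates the enzyme, had 2739, 2514 and 2618 normalized counts in DMSO, 2195, 1932 and 2104 at 0.5 µM and 2280.2, 2008 and 2151 at 1.5 µM, lower in every JQ1 library, at −0.34 ± 0.061 and −0.29 ± 0.061. Thus the subunits of 1 complex were called in both directions.

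Of the 4 members that methylate H3K36, H3K79 or H4K20, SETD2 rose and the other 3 were lower at 1.5 µM. SETD2, the writer of H3K36me3 that travels with elongating RNA polymerase II, had 4253, 4689 and 4810.4 normalized counts in DMSO, 5642, 5684 and 5878 at 0.5 µM and 6332, 6596 and 6292 at 1.5 µM. The 3 groups did not overlap, with log2 fold changes of 0.32 ± 0.046 and 0.48 ± 0.046 (adjusted p = 3.7e-06 by limma at 1.5 µM). SETD8 (KMT5A), the H4K20 monomethyltransferase of the cell cycle, had 2797, 2816 and 2849 normalized counts in DMSO, 1817, 2109 and 1933 at 0.5 µM and 1643, 1685 and 1733 at 1.5 µM, and was also separate at each dose, at −0.53 ± 0.052 and −0.74 ± 0.052 on the log2 scale (adjusted p = 3.4e-07 by limma at 1.5 µM). NSD1, an H3K36 dimethyltransferase, fell at both doses, at −0.27 ± 0.048 and −0.31 ± 0.048. DOT1L, the H3K79 methyltransferase, was called lower at 1.5 µM alone (−0.08 ± 0.038 and −0.12 ± 0.038). The 5 other SET-domain genes gave 1 higher call at 0.5 µM, and 2 higher and 1 lower at 1.5 µM. SETD9 rose at both doses (0.44 ± 0.11 and 0.50 ± 0.11), SETD4 was called higher at 1.5 µM (0.07 ± 0.044 and 0.16 ± 0.044) and SETD6, a methyltransferase of the NF-κB subunit RELA and the most abundant of the 5, was called lower at 1.5 µM (−0.05 ± 0.031 and −0.10 ± 0.031). SETD3, the actin histidine methyltransferase, was not called (0.0014 ± 0.056 and −0.03 ± 0.056), nor was SETD5 (0.02 ± 0.055 and 0.12 ± 0.055). The smaller of these calls depended on single libraries. Without DMSO replicate 2, DOT1L (adjusted p = 0.0618 by limma) and SETD6 (adjusted p = 0.065) were not called at 1.5 µM, and SETD6 was also lost without 1.5 µM replicate 1 (adjusted p = 0.064). SETD6 (−0.07, adjusted p = 0.0457) and SETD3 (−0.08, adjusted p = 0.0236) were called lower at 0.5 µM without 0.5 µM replicate 2. DOT1L was called lower at 0.5 µM without 0.5 µM replicate 3 (−0.12, adjusted p = 0.0071). SETD5 was called higher at 1.5 µM without DMSO replicate 3 (adjusted p = 0.0343), 0.5 µM replicate 2 (adjusted p = 0.0229) or 0.5 µM replicate 3 (adjusted p = 0.0332). Without the 3 JQ1 libraries that carry SLC2A3, DOT1L (adjusted p = 0.06), SETD4 (adjusted p = 0.0766) and SETD6 (adjusted p = 0.297) were not called at 1.5 µM. SETD4 was not called at 1.5 µM with FPKM values (adjusted p = 0.447 by limma). DOT1L was called lower at 0.5 µM too with FPKM values (−0.36, adjusted p = 0.00418 by limma) and upper-quartile scaling (−0.14, adjusted p = 0.0136). The same held with library weights (−0.10, adjusted p = 0.00177) and length-adjusted values (−0.17, adjusted p = 0.00121).

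All 8 protein arginine methyltransferases were called at both doses, 3 higher and 5 lower, where 70% of all tested genes were called at 0.5 µM and 73.1% at 1.5 µM. The abundant enzymes were among those that fell. PRMT1, the main asymmetric dimethyltransferase, which writes H4R3me2a, had 21007, 20259 and 20488 normalized counts in DMSO, 16220.2, 16869 and 16276 at 0.5 µM and 15577, 15302 and 15520.3 at 1.5 µM. Its JQ1 libraries were all below DMSO, at −0.32 ± 0.028 and −0.41 ± 0.028 on the log2 scale (adjusted p = 2.6e-07 by limma at 1.5 µM). PRMT5, the main symmetric dimethyltransferase, which acts on H4R3, H3R8 and splicing proteins, had 12099, 12268 and 12050.1 normalized counts in DMSO, 6885, 8108 and 6985 at 0.5 µM and 6454, 6446 and 6489.6 at 1.5 µM. The 3 groups did not overlap, with log2 fold changes of −0.73 ± 0.054 and −0.91 ± 0.054 (adjusted p = 8.8e-08 by limma at 1.5 µM), and 53.2% of the DMSO level was left at 1.5 µM. The window of PRMT5 is shown as that of an abundant writer that fell, at chr14:22929327-22929626 on the minus strand, in the same lettering as above.
PRMT5: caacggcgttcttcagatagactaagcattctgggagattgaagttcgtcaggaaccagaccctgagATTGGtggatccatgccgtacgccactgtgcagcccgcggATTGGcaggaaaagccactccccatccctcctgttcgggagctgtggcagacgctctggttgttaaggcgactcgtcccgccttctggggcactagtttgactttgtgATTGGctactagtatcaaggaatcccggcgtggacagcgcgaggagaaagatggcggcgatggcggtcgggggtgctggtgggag
It holds CCAAT motifs at −183, −143 and −35 from the start, no E-box, GC box or TATAAA, 58% G or C bases and 20 CpG dinucleotides.

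PRMT2 rose the most in its class. It had 4620.4, 4479.6 and 4237 normalized counts in DMSO, 7837, 8218 and 7853 at 0.5 µM and 8243, 8032 and 8184 at 1.5 µM, with the JQ1 libraries far above DMSO and the doses overlapping (0.84 ± 0.037 and 0.88 ± 0.037, adjusted p = 7.9e-09 by limma at 1.5 µM). PRMT8, a plasma membrane enzyme largely restricted to the brain, had 567, 558 and 618 normalized counts in DMSO, 209, 254 and 225 at 0.5 µM and 159, 164 and 165 at 1.5 µM. It fell at both doses with all 3 groups separate, at −1.34 ± 0.088 and −1.83 ± 0.088 (adjusted p = 1.8e-08 by limma at 1.5 µM). PRMT3, which methylates the ribosomal protein RPS2, rose by 0.40 ± 0.061 and 0.41 ± 0.061, and PRMT10 (PRMT9), which methylates the splicing factor SF3B2, by 0.37 ± 0.059 and 0.39 ± 0.059. PRMT6, the writer of H3R2me2a, fell, at −0.23 ± 0.035 and −0.36 ± 0.035, and PRMT7, a monomethyltransferase, at −0.16 ± 0.048 and −0.15 ± 0.048. With FPKM values in place of counts, PRMT7 was called at neither dose (−0.07, adjusted p = 0.378, and −0.04, adjusted p = 0.609, by limma). PRMT7 was not called at 0.5 µM (adjusted p = 0.0581 by limma) or 1.5 µM (adjusted p = 0.0665) without DMSO replicate 2, nor at 1.5 µM without 1.5 µM replicate 3 (adjusted p = 0.059) or without the 3 JQ1 libraries that carry SLC2A3 (adjusted p = 0.0968).

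HDAC9 and HDAC7 fell furthest among the deacetylases, and the other members of class II rose or were not called. Class IIa deacetylases (HDAC4, HDAC5, HDAC7 and HDAC9) bind MEF2 factors and have weak catalytic activity of their own. HDAC9 had 4658, 4872 and 5023 normalized counts in DMSO, 2170.4, 1999 and 2179 at 0.5 µM and 1232, 1381 and 1259.8 at 1.5 µM. The 3 groups were widely apart, with log2 fold changes of −1.20 ± 0.054 at 0.5 µM and −1.91 ± 0.054 at 1.5 µM (adjusted p = 6.1e-10 by limma at 1.5 µM), and 26.6% of the DMSO level was left. HDAC7 had 2117, 2032 and 2036 normalized counts in DMSO, 929.6, 931 and 1022 at 0.5 µM and 791, 842 and 859.7 at 1.5 µM. It too was separate at each dose, with log2 fold changes of −1.10 ± 0.053 and −1.31 ± 0.053 (adjusted p = 5.4e-09 by limma at 1.5 µM). RefSeq lists 5 starts for HDAC9, so no single start window is shown for it. HDAC4 rose by 0.39 ± 0.071 at 0.5 µM and 0.58 ± 0.071 at 1.5 µM, and HDAC5 by 0.26 ± 0.063 and 0.30 ± 0.063. HDAC6, the cytoplasmic tubulin deacetylase and the most abundant of class II by FPKM, had 6059, 6139 and 6092 normalized counts in DMSO, 8583, 9279 and 9256 at 0.5 µM and 9049, 9271 and 8969 at 1.5 µM, above DMSO in every JQ1 library (0.57 ± 0.035 and 0.58 ± 0.035). HDAC10, a polyamine deacetylase, was not called (0.01 ± 0.052 and 0.04 ± 0.052). With FPKM values HDAC10 was called lower at both doses (−0.15, adjusted p = 0.0288, and −0.20, adjusted p = 0.00576, by limma).

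Of the 4 class I deacetylases and HDAC11, the class IV enzyme, 3 were higher and 1 lower at 0.5 µM, and 2 higher and 2 lower at 1.5 µM. HDAC3, the catalytic subunit of the NCOR and SMRT corepressor complexes, had 2525, 2511 and 2636 normalized counts in DMSO, 3574, 4296 and 3622 at 0.5 µM and 3930.5, 3781 and 3810.1 at 1.5 µM. All JQ1 libraries were above DMSO and the doses overlapped, at 0.58 ± 0.063 and 0.59 ± 0.063 on the log2 scale (adjusted p = 9.7e-06 by limma at 1.5 µM). HDAC11 rose by 0.55 ± 0.074 and 0.55 ± 0.074, while HDAC8, which deacetylates the cohesin subunit SMC3, fell, at −0.33 ± 0.067 and −0.53 ± 0.067. HDAC1 and HDAC2, the shared catalytic subunits of the SIN3, NuRD and CoREST complexes, differed little from DMSO. HDAC2 had 26049.7, 25982 and 25251 normalized counts in DMSO, 27501, 30755 and 26490.4 at 0.5 µM and 26926, 27529.9 and 27917 at 1.5 µM, and was called at 0.5 µM (0.13 ± 0.049, adjusted p = 0.034) and not at 1.5 µM (0.09 ± 0.049, adjusted p = 0.11, by limma). HDAC1 was called lower at 1.5 µM alone (−0.04 ± 0.027 and −0.09 ± 0.027). Both calls are near the threshold. That of HDAC2 at 0.5 µM was lost without any 1 DMSO library (adjusted p of 0.06 to 0.1 by limma) or without 1.5 µM replicate 2 (adjusted p = 0.0505), and HDAC2 was called higher at 1.5 µM without 0.5 µM replicate 2 (adjusted p = 0.00291). That of HDAC1 at 1.5 µM was lost without DMSO replicate 2 (adjusted p = 0.0524), 1.5 µM replicate 1 (adjusted p = 0.0502) or the 3 JQ1 libraries that carry SLC2A3 (adjusted p = 0.152), and HDAC1 was called lower at 0.5 µM without 0.5 µM replicate 2 (−0.06, adjusted p = 0.0488). HDAC2 was also not called at 0.5 µM with FPKM values (adjusted p = 0.0803 by limma) or upper-quartile scaling (adjusted p = 0.147).

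Of the 7 sirtuins, the NAD-dependent deacylases, 5 rose at both doses, and 1 fell at 0.5 µM and 2 at 1.5 µM. SIRT1, the nuclear enzyme that deacetylates histones and p53, rose the most of those with more than 100 normalized counts. It had 2281, 2274 and 2352 normalized counts in DMSO, 4258, 4673 and 4223 at 0.5 µM and 4578, 5052 and 4599 at 1.5 µM, well above DMSO in every JQ1 library, with log2 fold changes of 0.93 ± 0.051 and 1.04 ± 0.051 (adjusted p = 2e-08 by limma at 1.5 µM). Its start window is shown as that of an eraser that rose, at chr10:67884406-67884705 on the plus strand, in the same lettering as above.
SIRT1: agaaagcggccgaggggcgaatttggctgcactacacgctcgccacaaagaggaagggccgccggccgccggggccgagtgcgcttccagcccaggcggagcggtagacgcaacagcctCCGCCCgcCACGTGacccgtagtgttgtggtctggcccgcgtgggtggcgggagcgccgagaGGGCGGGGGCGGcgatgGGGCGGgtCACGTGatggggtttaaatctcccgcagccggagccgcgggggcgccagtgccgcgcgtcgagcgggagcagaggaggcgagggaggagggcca
It holds E-boxes at −123 and −44 and GC boxes at −131, −69, −63 and −52 from the start, no CCAAT or TATAAA, 72.7% G or C bases and 39 CpG dinucleotides.

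SIRT7, the H3K18 deacetylase of the nucleolus, rose by 0.41 ± 0.035 at 0.5 µM and 0.39 ± 0.035 at 1.5 µM. The mitochondrial members SIRT3, SIRT4 and SIRT5 rose together. SIRT3, the main mitochondrial deacetylase, rose by 0.56 ± 0.051 and 0.65 ± 0.051, and SIRT5, a desuccinylase, by 0.28 ± 0.068 and 0.30 ± 0.068. SIRT4 had only 13.2, 19.4 and 15.1 normalized counts in DMSO, 33.2, 34.0 and 43.9 at 0.5 µM and 37.1, 52.4 and 44.1 at 1.5 µM, a rise of 1.18 ± 0.25 and 1.43 ± 0.25 with the widest errors of the class. SIRT2, a mainly cytoplasmic deacetylase that acts on H4K16 in mitosis, fell and was the most abundant sirtuin by FPKM. It had 3618, 3607 and 3649 normalized counts in DMSO, 3368, 3374 and 3256 at 0.5 µM and 2988, 2919.6 and 2853 at 1.5 µM, separate at each dose (−0.12 ± 0.032 and −0.31 ± 0.032, adjusted p = 7.3e-06 by limma at 1.5 µM). SIRT6, the H3K9 deacetylase of telomeric chromatin, was called lower at 1.5 µM alone (−0.06 ± 0.047 and −0.20 ± 0.047). It was called lower at 0.5 µM too with FPKM values (−0.16, adjusted p = 0.0288 by limma). Upper-quartile scaling (−0.11, adjusted p = 0.0388) and library weights (−0.08, adjusted p = 0.0336) gave the same call.

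Of the 17 lysine demethylases, KDM6B was the only one called lower at either dose on normalized counts, and 13 were higher at 1.5 µM. With FPKM values, KDM5C (−0.24 at both doses, adjusted p = 0.00208 and 0.00186 by limma) and KDM2A (−0.19, adjusted p = 0.00218, and −0.18, adjusted p = 0.00206) were called lower too. With upper-quartile scaling, KDM5C was called lower at both doses (adjusted p = 0.0273 and 0.0365 by limma), KDM2A at 0.5 µM (adjusted p = 0.0328) and KDM4D at 1.5 µM (adjusted p = 0.0434). Length-adjusted values, described with transcript length, also gave lower calls at both doses for KDM5C (adjusted p = 0.00197 and 0.000724 by limma) and KDM2A (adjusted p = 0.00386 and 0.00146). KDM3A, which removes H3K9me1 and H3K9me2 and is induced by hypoxia, had 3705, 3935 and 4034 normalized counts in DMSO, 6053, 5955 and 6069.7 at 0.5 µM and 6026, 6361 and 6476 at 1.5 µM. KDM1B (LSD2), an H3K4 demethylase, had 4139, 4224 and 4376 normalized counts in DMSO, 6310.0, 6554 and 6309 at 0.5 µM and 6487, 7070.2 and 6873 at 1.5 µM. In both, all JQ1 libraries were above DMSO and the doses overlapped, with log2 fold changes at 1.5 µM of 0.69 ± 0.040 for KDM3A and 0.68 ± 0.039 for KDM1B (adjusted p = 7.6e-08 and adjusted p = 7.2e-08 by limma). KDM1A (LSD1), the H3K4 demethylase of the CoREST complex and the most abundant demethylase by FPKM, had 35146, 35217 and 35112 normalized counts in DMSO, 37982, 39056 and 36952 at 0.5 µM and 39356, 39321 and 39502 at 1.5 µM. The change was small and the groups were tight, so that the 3 groups did not overlap at 0.11 ± 0.027 and 0.16 ± 0.027 on the log2 scale (adjusted p = 0.00027 by limma at 1.5 µM). KDM6B (JMJD3), an H3K27 demethylase, had 7523, 7595 and 7723 normalized counts in DMSO, 6418, 5399.8 and 6571 at 0.5 µM and 5639, 5807 and 5675 at 1.5 µM, below DMSO in every JQ1 library (−0.32 ± 0.062 and −0.42 ± 0.062). Its paralogue KDM6A (UTX) rose by 0.22 ± 0.043 and 0.25 ± 0.043.

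The KDM4 enzymes, which act on H3K9me3 and H3K36me3, rose except for the low-level KDM4D. KDM4A rose by 0.35 ± 0.032 at 0.5 µM and 0.43 ± 0.032 at 1.5 µM, KDM4B by 0.38 ± 0.057 and 0.50 ± 0.057, and KDM4C by 0.43 ± 0.033 and 0.58 ± 0.033. KDM4D was not called (−0.14 ± 0.13 and −0.28 ± 0.13). Of the KDM5 enzymes, which remove H3K4me3, KDM5B had 9493, 9763 and 9976 normalized counts in DMSO, 13549, 12612 and 13609 at 0.5 µM and 14739, 15384 and 15219.7 at 1.5 µM, with no overlap between the 3 groups (0.44 ± 0.037 and 0.63 ± 0.037, adjusted p = 8e-08 by limma at 1.5 µM). KDM5A was called higher at 1.5 µM alone (0.09 ± 0.055 and 0.27 ± 0.055), KDM5D was higher at both doses (0.28 ± 0.076 and 0.43 ± 0.076), and KDM5C was not called (−0.07 ± 0.042 and −0.07 ± 0.042). KDM3B, the paralogue of KDM3A, rose by 0.26 ± 0.042 and 0.33 ± 0.042, and KDM8 by 0.20 ± 0.060 and 0.16 ± 0.060. The CpG-binding H3K36 demethylases moved little: KDM2B was called higher at 1.5 µM (0.03 ± 0.032 and 0.11 ± 0.032) and KDM2A was not called (−0.03 ± 0.032 and −0.01 ± 0.032). Single libraries decided some of these calls. KDM8 was not called at 1.5 µM without any 1 DMSO library or without 1.5 µM replicates 1 or 3 (adjusted p of 0.0531 to 0.103 by limma), and KDM2B not without DMSO replicate 2 (adjusted p = 0.0507). KDM4D was called lower at 1.5 µM without 0.5 µM replicate 1 (adjusted p = 0.0411) or 2 (adjusted p = 0.0391), and KDM5A higher at 0.5 µM without 0.5 µM replicate 2 (0.15, adjusted p = 0.00699). In the fit that leaves out the 3 JQ1 libraries with SLC2A3, KDM2B (adjusted p = 0.08) was not called at 1.5 µM and KDM8 at neither dose (adjusted p = 0.0827 and 0.0968). With FPKM values KDM8 was called at neither dose (adjusted p = 0.286 and 0.394 by limma) and KDM5D not at 0.5 µM (adjusted p = 0.0567). Upper-quartile scaling ended the calls of KDM1A at 0.5 µM (adjusted p = 0.0666 by limma) and of KDM2B (adjusted p = 0.145) and KDM8 (adjusted p = 0.107) at 1.5 µM.

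**Figure D3:**
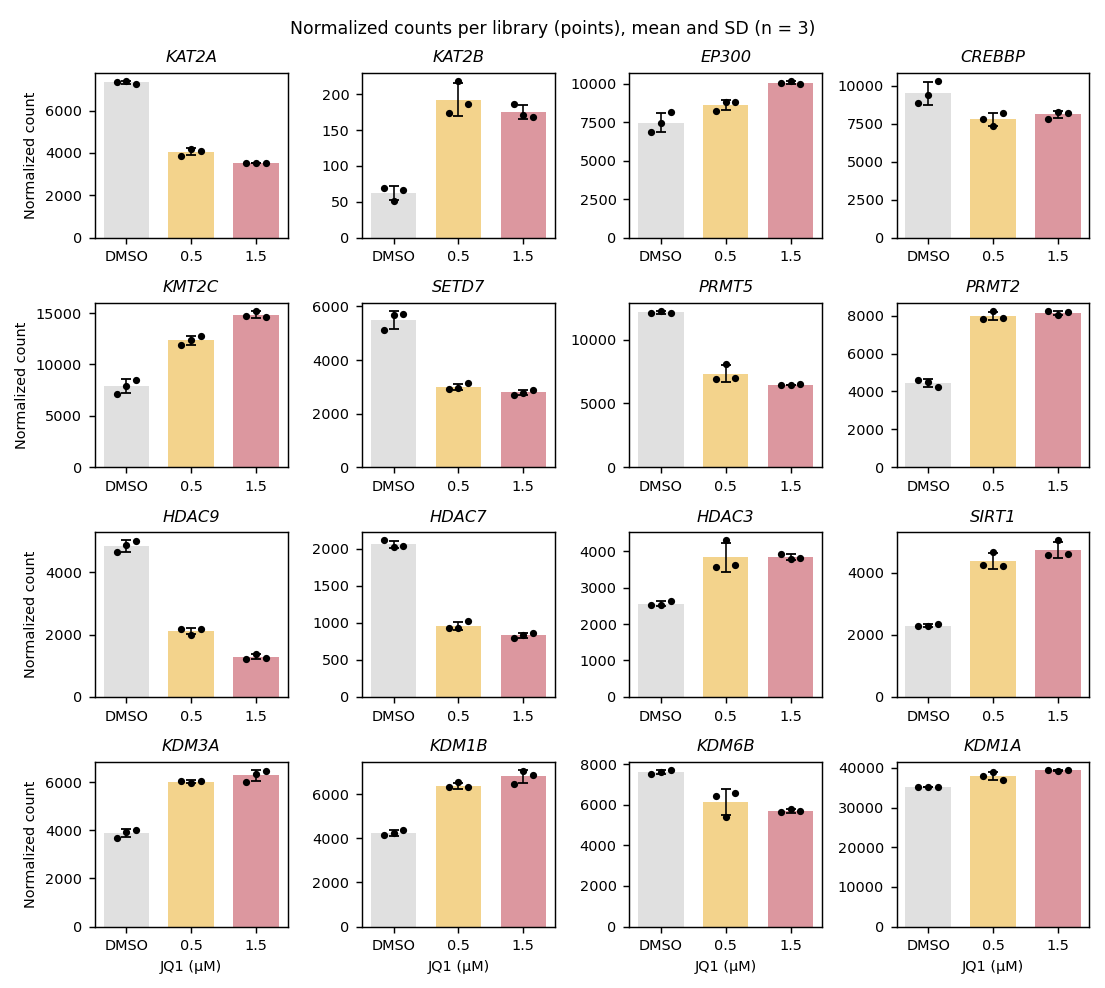
Normalized counts of 16 members in each library (y axes, linear from 0); bars are means and error bars SD of 3 libraries in DMSO, 0.5 µM and 1.5 µM JQ1, and points are single libraries. The libraries of a group lie close together beside the differences between groups for KAT2A, HDAC9, HDAC7, PRMT5 and SIRT1, while KDM1A changes by a small share of its level.

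Some close paralogues were called in opposite directions. Of 15 pairs compared, a list chosen with the results of these data known, 6 were called in opposite directions at 0.5 µM, 3 were both higher and 1 both lower, 4 had 1 member called and 1 had neither. At 1.5 µM 7 pairs were opposite: KAT2A and KAT2B, KAT6A and KAT6B, EP300 and CREBBP, SETD1A and SETD1B, SETDB1 and SETDB2, EHMT1 and EHMT2, and KDM6A and KDM6B. The pairs EZH1 and EZH2, KDM1A and KDM1B, and KDM3A and KDM3B rose together, SUV39H1 and SUV39H2 fell together, and in the other 4 pairs 1 member was called. Paralogues outside these pairs also moved together: KDM4A, KDM4B and KDM4C were higher, HDAC4 and HDAC5 higher, and HDAC7 and HDAC9 lower. Higher and lower calls were about equally frequent in the background, at 35.3% and 34.7% of all tested genes at 0.5 µM and 36.9% and 36.2% at 1.5 µM. With FPKM values EHMT1 was not called at 1.5 µM, so that the EHMT pair was not opposite there. No test of opposite calls against pairs of other genes was made.

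**Figure D4:**
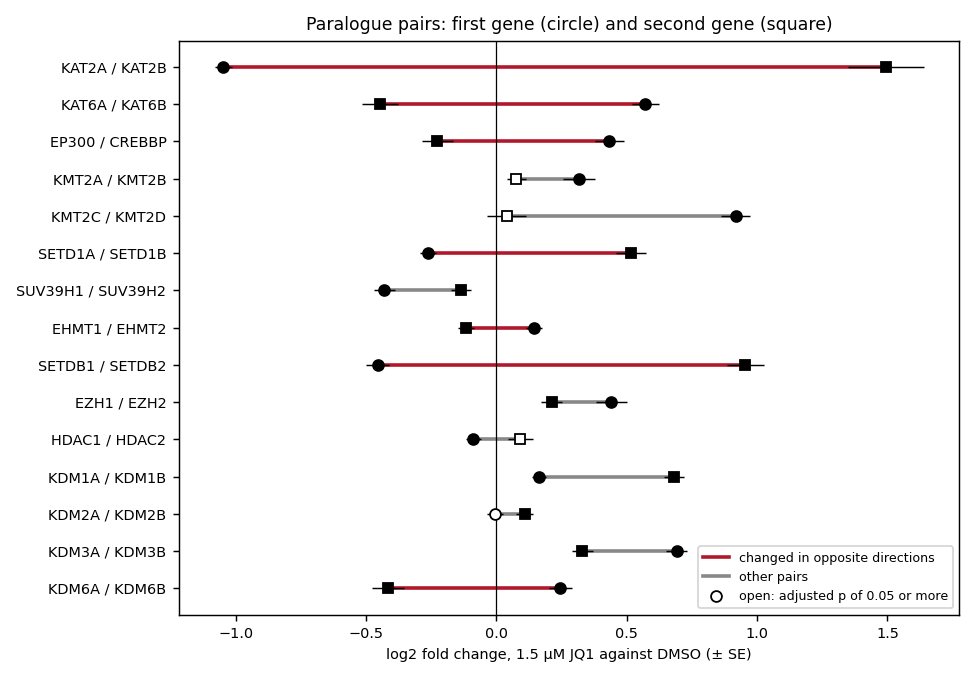
Log2 fold change at 1.5 µM JQ1 against DMSO (x axis) of both members of 15 paralogue pairs, joined by a line that is red where the members were called in opposite directions. In 7 pairs the lines are red, with KAT2A at −1.05 and KAT2B at 1.49 the widest apart.

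Between the doses, 13 members changed further at 1.5 µM than at 0.5 µM, 5 higher and 8 lower, where 4.66% and 8.09% of all tested genes were called. Each of the 13 moved in the direction of its call at 0.5 µM. The members higher at 1.5 µM than at 0.5 µM were KMT2C, at 0.27 ± 0.057, EP300, at 0.23 ± 0.055, KDM5B, at 0.19 ± 0.037, SETD2, at 0.16 ± 0.046, and KDM4C, at 0.15 ± 0.033 (log2 fold change of 1.5 µM over 0.5 µM). Those lower at 1.5 µM than at 0.5 µM were HDAC9, at −0.71 ± 0.054, PRMT8, at −0.49 ± 0.088, HDAC7, at −0.21 ± 0.053, SETD8, at −0.21 ± 0.052, KAT2A, at −0.19 ± 0.034, SIRT2, at −0.19 ± 0.032, SUV39H1, at −0.14 ± 0.039, and PRMT6, at −0.13 ± 0.035. These calls rest on few libraries. HDAC9 (adjusted p = 0.00011 by limma) was the only member whose step was called in all 24 alternatives that were fitted to single members. Without 1.5 µM replicate 2, limma called 0 members higher and 4 lower, with 8 and 12 at an unadjusted p under 0.05, and without 1.5 µM replicates 1 or 3 it called 2 higher and 4 lower in each case. The counts were 2 higher and 8 lower without 0.5 µM replicate 1, and 4 and 4 without DMSO replicate 2. Without the 3 JQ1 libraries that carry SLC2A3 and COL3A1, limma called 0 higher and 1 lower, with 5 and 7 at an unadjusted p under 0.05. On the recovered reads of all libraries, edgeR called 6 higher and 8 lower, and DESeq2 7 higher and 14 lower.

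Several of the largest members have very long transcripts, and transcript length moved with the fold changes across all genes. For the 16966 tested genes with a longest transcript in GENCODE v29, the median log2 fold change in transcripts of at most 1000 bases was −0.25 at 0.5 µM and −0.16 at 1.5 µM. It was 0.14 at 0.5 µM and 0.22 at 1.5 µM for the 314 genes with transcripts over 12000 bases. DMSO libraries also differed by length from each other: in the longest bin, the median deviation from the DMSO mean was −0.07 in replicate 1 and 0.08 in replicate 3. Among the 79 members with a length, Spearman's rho of length with the log2 fold change was −0.01 at 0.5 µM and 0.07 at 1.5 µM, and 0.34 for 1.5 µM over 0.5 µM, against 0.13, 0.12 and 0.05 over all 16966 genes. These are descriptions across genes of the same libraries. KMT2D has a longest transcript of 19419 bases, KMT2C of 16862, KMT2A of 16628 and NSD1 of 12892.

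With values adjusted for length within each library, an alternative chosen after seeing the data, 36 members were higher and 28 lower at 0.5 µM, and 38 higher and 30 lower at 1.5 µM. Writers were then 15 higher and 21 lower at 0.5 µM and 16 higher and 22 lower at 1.5 µM, and erasers 21 higher and 7 lower, then 22 higher and 8 lower. Between the doses, 6 members were higher and 9 lower at 1.5 µM. Calls over all tested genes were not counted after this adjustment, so these counts have no background of their own. At 1.5 µM, KMT2A was at 0.06 (adjusted p = 0.291 by limma) after the adjustment, EHMT1 at 0.0019, KDM2B at −0.01 and EP300 at 0.26 on the log2 scale. KMT2D was called lower at both doses after it (−0.26, adjusted p = 0.00192, and −0.24, adjusted p = 0.00322, by limma). The part of transcript length, and of anything that moves with it, in the changes of the long members was not tested beyond this adjustment.

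**Figure D5:**
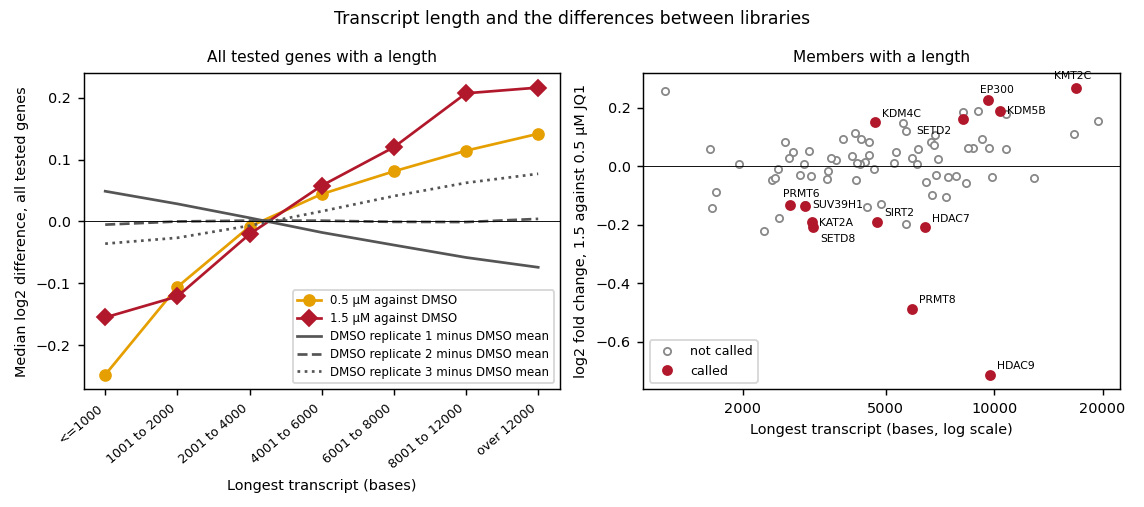
Left, median log2 difference of all tested genes by bin of longest transcript (x axis, bases) for both doses against DMSO and for the deviation of each DMSO library from the DMSO mean; right, log2 fold change of 1.5 µM over 0.5 µM JQ1 of each member against its longest transcript. The medians of both doses are below 0 in the shortest bin and at 0.14 and 0.22 in the longest, and KMT2C lies at the top right of the members.

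Genes of the same complexes that the rule did not take were called in both directions as well. The 129 genes of 5 related lists gave 57 higher and 50 lower at 0.5 µM and 51 higher and 50 lower at 1.5 µM. At 0.5 µM these were 44.2% and 38.8%, beside 35.3% and 34.7% of all tested genes. At 1.5 µM they were 39.5% and 38.8%, beside 36.9% and 36.2%. The same background applies to the counts of each of the 5 lists. Of 26 other enzymes of the same kinds, 10 were higher and 13 lower at 0.5 µM, and 11 higher and 12 lower at 1.5 µM. HR, a JmjC-domain corepressor of nuclear receptors, fell, at −2.71 and −3.52, more than any member of the set, with means of 2674 normalized counts in DMSO, 411 at 0.5 µM and 232 at 1.5 µM. CARM1 (PRMT4), an arginine methyltransferase outside the symbol rule, fell, at −0.41 and −0.52, and WHSC1 (NSD2) rose by 0.25 and 0.25. WHSC1L1 (NSD3) rose by 0.22 and 0.23. Among 28 further Polycomb subunits, 10 were higher and 12 lower at 0.5 µM and 9 higher and 13 lower at 1.5 µM. PHF19, which brings PRC2 to chromatin, fell, at −1.44 and −1.77, and RNF2, the H2A ubiquitin ligase of PRC1, rose by 0.60 and 0.64.

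The 14 COMPASS and MLL complex subunits gave 8 higher and 2 lower at 0.5 µM and 4 higher and 2 lower at 1.5 µM, with ASH2L, a core subunit, higher by 0.62 and 0.64. Of 29 deacetylase complex subunits, 12 were higher and 14 lower at 0.5 µM and 14 of each at 1.5 µM. CHD3 and CHD5, remodelling subunits of NuRD, fell, CHD3 at −0.97 and −1.06 and CHD5 at −1.13 and −1.43, and RCOR1, the CoREST scaffold that binds KDM1A, rose by 0.72 and 0.87. Of 32 acetyltransferase complex subunits, 17 were higher and 9 lower at 0.5 µM and 13 higher and 9 lower at 1.5 µM. PHF15 (JADE2), a partner of KAT7, fell, at −2.30 and −2.64, and EP400, the remodelling subunit of the KAT5 complex, rose by 0.46 and 0.71. The genes named from these lists were picked by size of change at 1.5 µM or as enzymes under older symbols, and their values are descriptions.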

How the data were processed

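RNA of 9 libraries of COR-L279 cells was measured by sequencing. Per the submitters' processing notes, reads went through cutadapt, STAR and RSEM on the genome build hg19 while versions, annotation release and strand setting were not given, which makes genes that overlap others uncertain. The deposited tables hold normalized counts, a signal scaled between libraries by the authors, and FPKM values that the authors rounded to 2 decimals. With 1 factor per library taken off, 100% of the normalized values came out as whole reads within 0.001.

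The members and lists were chosen with earlier results of these data known. Genes with at least 10 normalized counts in at least 3 libraries were tested with limma 3.58.1 in R 4.3.3 (mean-variance trend, log2 of the value plus a pseudocount of 1, all 9 libraries in 1 fit, two-sided, Benjamini-Hochberg over 17514 genes, threshold 0.05). Fold changes of low genes are understated on this scale. The p-values measure the spread between these libraries, which the labels call biological replicates. Alternatives were edgeR 4.0.16 and DESeq2 1.42.0 on recovered reads, TMM and upper-quartile scaling, FPKM (pseudocount 0.1), other pseudocounts and filters, no trend, library weights, a replicate block, left-out libraries, and length-adjusted values, chosen after seeing the data.

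In each class, the rule for named genes took up to 3 members of each sign with the largest called change at 1.5 µM, the most abundant member in DMSO, and, over all classes, the 4 largest called changes of each sign between doses; all other members are given by value. The rule for sequence gave KAT2B and HDAC9. KAT2A, PRMT5 and SIRT1 were added after their values were seen, as members with 1 listed start. Start windows came from RefSeq (GRCh38.p14), and no position on hg19 is given.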

Additional observations from a re-analysis of the deposited data

How the results depend on the processing

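Of 61 members called at 0.5 µM and 69 called at 1.5 µM, 52 and 57 kept their call and direction in all 24 alternatives fitted to single members. Leaving out 1 library at a time gave 39 to 41 members higher and 19 to 25 lower at 0.5 µM, and 40 to 45 higher and 23 to 28 lower at 1.5 µM. Between the doses, where 5 members were higher and 8 lower, these ranges were 0 to 7 and 4 to 11. The counts between doses were 1 and 4 with FPKM, 3 and 5 in limma without trend, 15 and 16 with library weights, 0 and 1 without the 3 JQ1 libraries that carry SLC2A3, 7 and 14 with DESeq2, and 4 and 4 in a fit to the 6 JQ1 libraries. The cause of these differences was not tested, other than that some of these fits hold fewer libraries. Calls over all tested genes were not counted in these alternatives, so their counts have no background of their own. With upper-quartile scaling and with FPKM, 9 erasers were lower at 0.5 µM. With a log2 fold change of at least 0.5 asked as well, 4 of the 45 writers were higher and 5 lower at 0.5 µM, and 6 higher and 5 lower at 1.5 µM. Of the 35 erasers, 8 were higher and 2 lower, then 12 higher and 3 lower. Of all 17514 tested genes, 2874 were higher and 3552 lower by that much at 0.5 µM, and 3456 higher and 3863 lower at 1.5 µM.

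Same-numbered libraries of different groups correlated in their deviations at −0.385 to 0.131, and differently numbered ones at −0.145 to 0.253. The −0.385 was between the replicates 3 of the 2 doses, of which only that at 0.5 µM carries SLC2A3 and COL3A1. With that split among the JQ1 libraries, these values do not settle whether the numbers pair the libraries. With a replicate block, 41 members were higher and 20 lower at 0.5 µM, 43 and 27 at 1.5 µM, and 6 and 7 between doses.

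Direction turned in small changes, of which that of KDM2B at 1.5 µM was called with unadjusted values, and the cause was not tested. Some turned values were called lower by limma. With FPKM these were HDAC10 at both doses (adjusted p = 0.0288 and 0.00576) and KMT2B (ENSG00000105663.10) at 1.5 µM (adjusted p = 0.0136). With length-adjusted values they were KMT2B (ENSG00000272333.1) at both doses (adjusted p = 0.0239 and 0.0259) and KMT2D at 1.5 µM (adjusted p = 0.00322). Without 0.5 µM replicate 2 it was SETD3 at 0.5 µM (adjusted p = 0.0236). With upper-quartile scaling, the log2 fold change at 0.5 µM was −0.043 for HDAC10, −0.0265 for KDM2B, −0.0396 for KMT2B (ENSG00000272333.1), −0.0524 for SETD3 and −0.0387 for SETD5, and at 1.5 µM −0.0131 for HDAC10, −0.0324 for KMT2B (ENSG00000105663.10) and −0.0115 for KMT2D. With FPKM, it was −0.145 for HDAC10, −0.035 for KMT2B (ENSG00000272333.1), −0.0332 for SETD3 and −0.0095 for SETD5 at 0.5 µM, and −0.200 for HDAC10, −0.406 for KMT2B (ENSG00000105663.10) and −0.13 for KMT2D at 1.5 µM. With TMM scaling, SETD3 was at −0.0002 at 0.5 µM. With library weights, HDAC10 was at −0.0128 and SETD3 at −0.0496 at 0.5 µM, and KDM2A at 0.0118 at 1.5 µM. Without the 3 JQ1 libraries, HDAC10 was at −0.0295 and SETD5 at −0.0374 at 0.5 µM, and HDAC10 at −0.0063 and KMT2D at −0.0137 at 1.5 µM. With length-adjusted values, KDM2B was at −0.055, KDM5A at −0.0192, KMT2B (ENSG00000272333.1) at −0.0828 and SETD5 at −0.0681 at 0.5 µM, and at 1.5 µM HDAC2 was at −0.0887, KDM2B at −0.0109, KMT2B (ENSG00000272333.1) at −0.0804, KMT2D at −0.241, KMT2E at −0.0467 and SETD3 at 0.0021. Leaving out 1 library at a time gave −0.0295 to 0.0448 for HDAC10, −0.0026 to 0.0414 for KMT2B (ENSG00000272333.1), −0.0751 to 0.0464 for SETD3 and −0.0374 to 0.0555 for SETD5 at 0.5 µM, and −0.0254 to 0.0161 for KDM2A and −0.0429 to 0.119 for KMT2D at 1.5 µM.

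KAT2B and SIRT4 rest on low counts, which limits the precision of their fold changes. The data are RNA levels at 1 time point in 1 cell line, and hold no measure of protein, enzyme activity or histone marks.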

Other observations

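The deposited FPKM values and normalized counts gave different fold changes for some members at 1.5 µM. Over 16435 genes in both tables, the log2 fold change from FPKM minus that from counts had a median of −0.06, a 5th percentile of −0.22 and a 95th percentile of 0.16. For KMT2B (ENSG00000105663.10) the difference was −0.42, with −0.41 from FPKM (adjusted p = 0.0136 by limma) and 0.02 from counts. For DOT1L it was −0.28, for HDAC10 −0.24 and for PRMT3 −0.21. KMT2B, DOT1L and HDAC10 thus read as lower from FPKM than from counts by more than 95% of the genes in both tables.

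The rule left out 3 antisense genes. SETD5-AS1 had log2 fold changes of 0.41 at 0.5 µM and 0.65 at 1.5 µM, and KDM4A-AS1 0.70 and 1.10, all called higher by limma, while KMT2E-AS1 was not called at either dose. With no strand setting given, reads of these genes and of their partners SETD5, KDM4A and KMT2E may not be separated. The pseudogenes HDAC1P1 and HDAC1P2 and the demethylase gene KDM4E appear in the FPKM table alone, at no more than 0.29 FPKM in any library.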
